A study of Mus musculus with 6 samples.

Results

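The cells described here are T cells of the mouse mammary gland and of mammary tumours in which no transcript of Nkg7, a granule protein gene of cytotoxic lymphocytes, was counted. A cell was taken if it had at least 200 detected genes, under 10% of its unique molecular identifiers (UMIs, which count captured transcripts) from mitochondrial genes, at least 2 of the 6 T cell genes Cd3d, Cd3e, Cd3g, Trac, Trbc2 and Lck, and no UMI of Nkg7, C1qa (macrophages), Epcam (epithelium) or Cd79a (B cells). The members were thus chosen by their own UMI counts of these genes. This gate held 261 of 22244 cells that passed the limits on genes and mitochondrial UMIs (1.17%). A further 119 cells met the T cell criterion with at least 1 UMI of Nkg7, which brought the T-gated cells to 380.

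T cells read antigen through a receptor that signals through the CD3 chains. Most carry an alpha-beta receptor and either CD4 or CD8, and a smaller lineage carries a gamma-delta receptor and is concentrated in skin, gut and other barrier tissues. Naive T cells recirculate through lymph nodes by way of homing receptors such as the one encoded by Ccr7, regulatory T cells depend on the transcription factor encoded by Foxp3, and type 17 cells secrete interleukin 17. In mice a large share of gamma-delta T cells in barrier tissue belongs to the type 17 group.

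The 6 libraries come from female C3Tag mice, in which the C3(1) promoter drives the SV40 large T antigen in the mammary epithelium. All groups carry this transgene, so there is no wild-type control, and the study's methods give the strain as FVB/NJ. Of the libraries, 2 are from whole glands at 5 weeks of age (Prepuberty), 2 from whole glands at 14 weeks of age that held ductal carcinoma in situ (DCIS), and 2 from palpable tumours at over 18 weeks of age (Tumor). The labels do not say whether the libraries of a state came from different animals, so p-values measure only the spread between these libraries, which may be technical. The labels name the same digestion and library kit throughout. The study's methods name another dissociation kit for tumours and a later kit version for Tumor 2. If the methods hold, the dissociation kit goes with the Tumor state, as age and tissue type do, so their parts cannot be told apart. The part of the kit version in the results was not tested.

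The gate held 5 cells in Prepuberty 1, 81 in Prepuberty 2, 37 in DCIS 1, 13 in DCIS 2, 77 in Tumor 1 and 48 in Tumor 2. Prepuberty 1 had too few cells for the tests of genes, which required 10, so Prepuberty 2 alone stands for that state and was assumed to vary like the other libraries. In all, 1056863 UMIs were summed, from 22316 in Prepuberty 1 to 366692 in Tumor 2. The median cell held 1868 UMIs, against medians of 6624 to 13745 over all kept cells of the 6 libraries. No barcode sequence of a gated cell was shared between libraries.

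The T cell label was first checked against the gate genes, which the rule used and which are given without a test. Trbc2, a constant region of the T cell receptor beta chain, was detected in 227 of the 261 cells, the CD3 chain genes Cd3g, Cd3d and Cd3e in 190, 181 and 134, the alpha chain constant region Trac in 131 and the receptor kinase gene Lck in 92. At the edge of the rule, 62 cells had 2 of the 6 genes, and 48 had 3, 87 had 4, 45 had 5 and 19 had all 6. Ptprc, which encodes the pan-leukocyte antigen CD45, was seen in 117 cells (44.8%). Cd4 was seen without Cd8a or Cd8b1 in 33 cells, a Cd8 gene without Cd4 in 27, both in none, and neither in 201 (77.0%), so most cells could not be placed by coreceptor at this depth. The absence of an Nkg7 UMI does not make a cell non-cytotoxic, since the granzyme gene Gzmb was counted in 10 gated cells of Prepuberty 2 and 3 of DCIS 2, and the cells are called Nkg7-negative T cells below.

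A minority of the gated cells also carried the transcripts of other cell types. In 31 cells (11.9%), called mixed-profile cells here, either the 6 T cell genes made up under 5 of 10000 UMIs or 29 marker genes of epithelium, fibroblasts, endothelium and pericytes summed to at least 10 UMIs. These limits were chosen after the data had been seen. The 31 cells had a median of 15023 UMIs and 2.35 T cell gene UMIs per 10000, against 1729.5 and 46.1 in the other 230. The collagen gene Col1a1 was detected in 15 of them and in 2 of the others, the endothelial gene Pecam1 in 10 and 18, and the basal keratin gene Krt14 in 8 and 14. They held 50.2% of all UMIs of the gate, namely 78.7% in Prepuberty 1, 39.3% in Prepuberty 2, 27.9% in DCIS 1, none in DCIS 2, 46.1% in Tumor 1 and 70.4% in Tumor 2. Counts of called genes are therefore given for all gated cells and again without these 31 cells, while some single genes are given for 1 of these sets only.

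**Figure D1:**
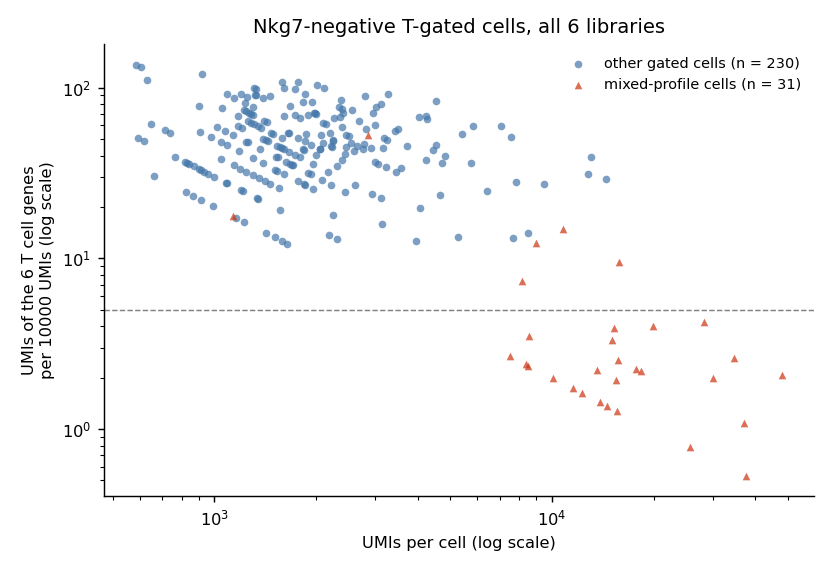
Each point is 1 Nkg7-negative T cell of the 6 libraries, with its total UMIs on the x axis and the UMIs of the 6 T cell genes per 10000 UMIs on the y axis, both on log scales. The 31 mixed-profile cells (triangles) lie mostly at the lower right, under the dashed line at 5 per 10000, and the 230 others (circles) lie above it.

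The levels of stromal and epithelial markers without the mixed-profile cells follow from the rule that left those cells out, since it used the same 29 genes, and are given as a description. The summed level of the 8 fibroblast markers ranged from 0.563 to 106 UMIs per 10000 over the 6 libraries in all gated cells and from 0 to 1.08 without the mixed-profile cells, and that of the 7 endothelial markers from 0.306 to 83.3 and from 0 to 1.01. The 10 epithelial markers, with Epcam at 0 by the gate, summed to 0.982 to 7.44 per 10000 in all gated cells and to 1.14 to 2.41 without the mixed-profile cells, and among the 6 libraries the sum was lower without those cells in Tumor 2 alone. Other lymphoid lists were not at 0 as a whole. Among the B and plasma cell genes, Cd79a, Ms4a1 and Jchain had no UMI, but the list summed to 4.08 per 10000 in Prepuberty 2, with 45 UMIs of the immunoglobulin gene Igkc, and to 0 to 1.30 in the other libraries. Of the 6 group 2 innate lymphoid cell genes, Il5, Il13 and Ptgdr2 had no UMI, while Il1rl1, Gata3 and Rora, of which the last 2 are also genes of T cells, summed to 14.7 per 10000 in the 3 cells of Prepuberty 1, 1.86 in Prepuberty 2, 7.66 and 3.66 in DCIS 1 and 2, and 3.78 in Tumor 2, with Tumor 1 between the values of DCIS 1 and Tumor 2. The part of these genes in the results was not tested. The mast cell genes Cpa3 and Mcpt4 and the dendritic cell genes Flt3, Itgax and Cd209a had no UMI. The remaining dendritic list, carried by the class II genes H2-Aa, H2-Ab1 and Cd74, was uneven between states: without the mixed-profile cells its sum was 1.80 per 10000 in Prepuberty 2, 8.82 and 7.88 in DCIS 1 and 2, and 0.922 and 0.368 in Tumor 1 and 2. The 8 macrophage markers, with C1qa at 0 by the gate and Adgre1 at 0, summed in that set to 0.30 per 10000 in Prepuberty 2, 2.89 and 1.97 in DCIS 1 and 2, and 1.21 and 0.368 in Tumor 1 and 2. The 5 neutrophil markers, with Csf3r and Retnlg at 0, summed to 3.18 in DCIS 1 and to 0 to 0.282 in the other libraries. The part of myeloid transcripts in the differences between DCIS and the other states was not tested.

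The abundance of Nkg7-negative T cells was then compared between disease states. They made up 0.114% of kept cells in Prepuberty 1 and 2.25% in Prepuberty 2, 1.17% and 0.325% in DCIS 1 and 2, and 1.72% and 1.84% in Tumor 1 and 2. Both Tumor libraries lay above both DCIS libraries, and the Prepuberty libraries lay at the lowest and the highest end. The mean share was 1.78% ± 0.0860 (SD, n = 2) in Tumor and 0.746% ± 0.596 (SD, n = 2) in DCIS, a difference of 1.03 percentage points (two-sided exact permutation p = 0.333, the smallest that 2 against 2 libraries can give). Tumor and Prepuberty differed by 0.60 percentage points, less than the spread within Prepuberty (exact permutation p = 1). As a share of cells with a Ptprc UMI the order of Tumor and Prepuberty turned, with a difference of -7.09 percentage points, with Prepuberty 2 at 33.6% and the other libraries at 0% to 10.7%.

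Among T-gated cells, the share without Nkg7 was lower in both tumours. It was 71.4% in Prepuberty 1 (5 of 7 cells), 88.0% in Prepuberty 2, 80.4% in DCIS 1, 81.3% in DCIS 2, 57.5% in Tumor 1 and 56.5% in Tumor 2. The Tumor mean was 57.0% ± 0.702 and the DCIS mean 80.8% ± 0.576 (SD, n = 2 each), a difference of -23.9 percentage points (exact permutation p = 0.333). A missing Nkg7 UMI depends on depth, and with every cell thinned to 1000 UMIs the shares were 100% in Prepuberty 1 (2 of 2 cells), 91.2% in Prepuberty 2, 76.5% and 83.3% in DCIS 1 and 2, and 66.7% and 61.9% in Tumor 1 and 2. The Tumor libraries stayed below the others, and the difference from DCIS was -15.6 percentage points. DCIS 2 rests on 16 T-gated cells and Prepuberty 1 on 7.

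**Figure D2:**
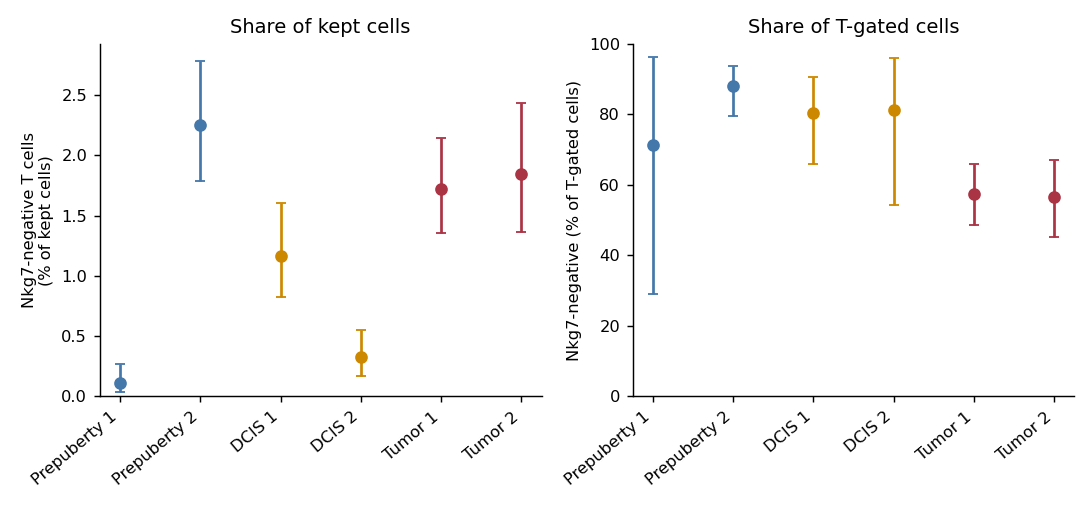
The left panel shows Nkg7-negative T cells as a percentage of kept cells and the right panel their percentage of T-gated cells, 1 point per library with its exact 95% binomial interval. On the left the Prepuberty libraries lie at both ends (0.114% and 2.25%), and on the right both Tumor libraries (57.5% and 56.5%) lie below the DCIS libraries (80.4% and 81.3%).

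Known states of T cells were looked for inside the gate by 1 gene each, and counted after thinning to 1000 UMIs so that libraries of different depth could be compared. Cells with fewer UMIs were left out of the thinned shares, and each share rests on 1 random draw of UMIs. A gamma-delta cell had a UMI of Trdc, the constant region of the receptor delta chain, and a regulatory cell had one of Foxp3. Without thinning these classes held 27 and 15 of the 261 cells, and no cell was in both. Il17a, the type 17 cytokine gene, was detected in 11 cells, 7 of which had a Trdc UMI.

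Gamma-delta cells without an Nkg7 UMI were counted in both tumours and, after thinning, in no gland library. The gate leaves out Nkg7-positive cells, of which 16 of 119 had a Trdc UMI, some of them in the gland library DCIS 2. The share with a Trdc UMI was 19.4% in Tumor 1 (13 of 67 cells, exact 95% interval 10.8% to 30.9%) and 22.9% in Tumor 2 (11 of 48 cells, 12% to 37.3%). It was 0 of 5 cells in Prepuberty 1, 0 of 70 cells in Prepuberty 2, which allows a share of up to 4.29%, 0 of 33 in DCIS 1, which allows up to 9.09%, and 0 of 11 in DCIS 2, which allows up to 27.3%. The difference between Tumor and DCIS was 21.2 percentage points (exact permutation p = 0.333). Unthinned, the shares were 0% in Prepuberty 2, 2.70% in DCIS 1 (1 cell), 0% in DCIS 2, 16.9% in Tumor 1 and 27.1% in Tumor 2. Among 8117 Epcam-positive cells without T cell genes (median 10141 UMIs), 1.36% had a Trdc UMI, and 0.202% did after thinning. By library the unthinned epithelial share was 3.10% and 0.881% in Prepuberty 1 and 2, 1.40% and 3.09% in DCIS 1 and 2, and 0.157% and 0.977% in Tumor 1 and 2. After thinning, the epithelial share was 0.104% and 0% in Prepuberty 1 and 2, 0.258% and 0.693% in DCIS 1 and 2, and 0% and 0.201% in Tumor 1 and 2. The part of free epithelial RNA in the Trdc counts was not tested.

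Il17a was also seen in both tumours alone. After thinning it was detected in 4.48% of cells in Tumor 1 and 10.4% in Tumor 2, and in none of the Prepuberty and DCIS libraries, with the same upper limits as for Trdc. Unthinned, it was found in 4 cells of Tumor 1 and 7 cells of Tumor 2. It was seen in 3.42% of all thinned gated cells and in 0 of 7932 thinned epithelial cells.

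Regulatory cells were few at every state. Foxp3 was seen after thinning in 3 of 70 cells of Prepuberty 2 (4.29%), 1 of 33 of DCIS 1 (3.03%), 1 of 11 of DCIS 2 (9.09%), and 0 of 67 and 0 of 48 cells in Tumor 1 and 2, which allow up to 4.48% and 6.25%. The Tumor and DCIS means differed by -6.06 percentage points (exact permutation p = 0.333), and the intervals of the libraries overlapped. With so few positive cells the thinned share moved with the draw and the cells in it, to 4 of 60 cells (6.67%) in Prepuberty 2 and 1 of 38 (2.63%) in Tumor 2 without the mixed-profile cells, and to 6 of 61 (9.84%) in Prepuberty 2 with at least 3 T cell genes. Unthinned, 9 of 81 cells of Prepuberty 2 (11.1%) had a Foxp3 UMI, 1 of 37 of DCIS 1 (2.70%), 2 of 13 of DCIS 2 (15.4%) and 1 cell in Prepuberty 1 and in each tumour, against 0.0370% of Epcam-positive cells.

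**Figure D3:**
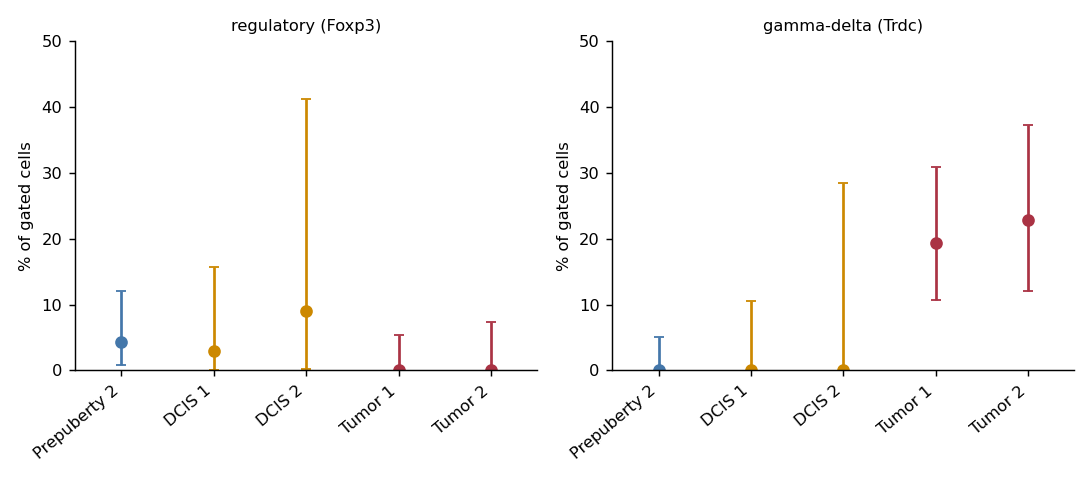
Each panel shows 1 class as a percentage of Nkg7-negative T cells thinned to 1000 UMIs, by library, with exact 95% binomial intervals that cover counting error only. Gamma-delta cells stand at 19.4% and 22.9% in the tumours and at 0% in the 3 gland libraries shown, while the intervals of regulatory cells overlap.

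For the tests of genes, UMIs were summed per library over all gated cells and compared between states by edgeR (its quasi-likelihood F test), with Benjamini-Hochberg adjustment over all genes tested and a threshold of 0.05. Of 5608 genes tested, Tumor was higher than DCIS in 53 (0.945%) and lower in 44 (0.785%), together 1.73%. With the mixed-profile cells left out, 31 of 2363 genes were higher (1.31%) and 52 lower (2.20%), together 3.51%, and 33 genes were called in both sets. DCIS against Prepuberty gave 5 higher and 5 lower genes (0.0892% each, together 0.178%), and 19 higher (0.804%) and 6 lower (0.254%, together 1.06%) without the mixed-profile cells. Tumor against Prepuberty gave 67 higher (1.19%) and 40 lower (0.713%, together 1.91%), and 21 (0.889%) and 20 (0.846%, together 1.74%) without them. With so few libraries, many tested genes did not overlap between states whether called or not. In all gated cells this held for 32.8% of genes as higher and 14.7% as lower in Tumor against DCIS, for 30.5% and 33.2% in Tumor against Prepuberty, and for 17.7% and 45.8% in DCIS against Prepuberty. The same shares were, with the mixed-profile cells left out, 24.7% and 20.8%, 27.4% and 41.6%, and 24.2% and 41.5%. The 3 comparisons share libraries. In all gated cells, 97 genes differed between Tumor and DCIS, but none did when Prepuberty 2 was left out of the fit (421 at an unadjusted p under 0.05), and 240 did without Tumor 1.

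Stromal and epithelial markers were among the calls. In all gated cells, 6 of the 21 tested were higher and 6 lower in Tumor than in Prepuberty, beside 1.19% and 0.713% of all genes. Among them the collagen gene Col1a1 and the keratin gene Krt14 were higher, and the endothelial genes Cldn5, Fabp4 and Egfl7 lower. In Tumor against DCIS, 3 were higher and 1 lower, beside 0.945% and 0.785% of all genes. In DCIS against Prepuberty, 0 were higher and 4 lower, beside 0.0892% of all genes each. Glycam1 had 323 UMIs in 2 cells of Prepuberty 2. With the mixed-profile cells left out, 1 of these markers had enough UMIs for the test, which the use of these markers to leave cells out brings about by itself. An edgeR call taken from the smaller set is named as such below. In sums of this kind, fewer cells of a type and less RNA per cell cannot be told apart.

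**Figure D4:**
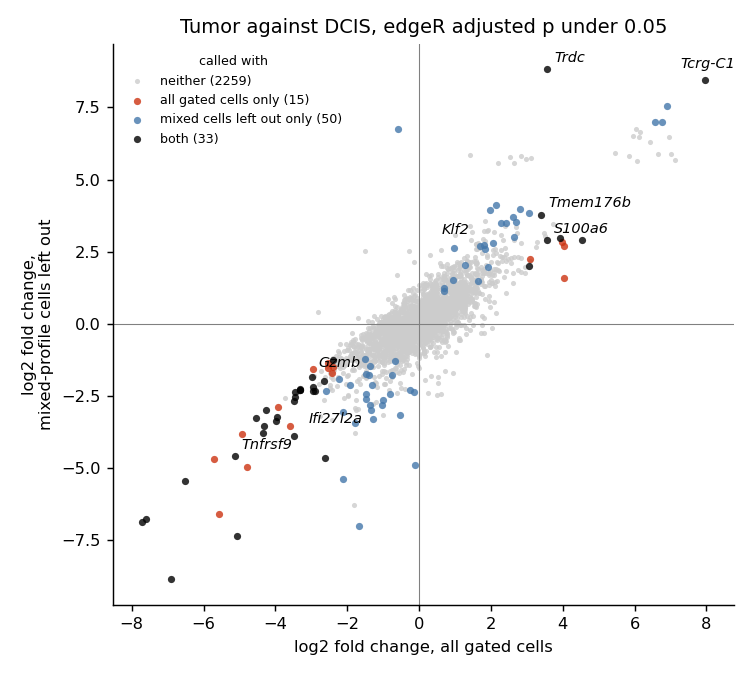
Log2 fold changes of Tumor against DCIS for the 2357 genes tested in both sets, with all gated cells on the x axis and the mixed-profile cells left out on the y axis. The 33 genes past the edgeR threshold in both sets (black) include Trdc, Tcrg-C1 and Tmem176b above 0 and Tnfrsf9 and Ifi27l2a below 0, 15 were called in all gated cells only (red) and 50 without the mixed-profile cells only (blue).

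Among the gamma-delta genes, Trdc and Tcrg-C1 rose in the Nkg7-negative T cells of the tumours. With the Nkg7-positive T cells added, the Trdc difference between Tumor and DCIS was smaller and no longer called, as given below. Trdc (chr14:54142851-54148868 on the plus strand, GRCm38) had no UMI in the Prepuberty libraries, 2 UMIs in 1 cell of DCIS 1, none in DCIS 2, 45 UMIs in 13 cells of Tumor 1 and 83 UMIs in 13 cells of Tumor 2. Tcrg-C1 (chr13:19214103-19217024 on the plus strand, GRCm38), a constant region of the gamma chain, had 1 UMI in Prepuberty 2, none in DCIS, 34 in Tumor 1 and 63 in Tumor 2. Both genes were higher per UMI in each Tumor library than in all others. In all gated cells, 32.8% of tested genes were higher without overlap in Tumor against DCIS and 30.5% against Prepuberty, so this is a description. Trdc was 13.4-fold higher in Tumor than in DCIS by the ratio of pooled UMIs (95% counting interval 3.63 to 112, edgeR adjusted p = 0.032). This interval and the least folds below count UMIs as independent, although the 83 UMIs of Tumor 2 lay in 13 cells. The interval may thus be too narrow and the least folds too high. The call in all gated cells was lost without Prepuberty 2 (log2 fold change 3.53, edgeR adjusted p = 0.18) and without DCIS 2 (2.97, 0.10). Without the mixed-profile cells, 1 of which held the UMIs of DCIS 1, it passed with any single library left out and was at least 17.6-fold higher than in DCIS (edgeR adjusted p = 4.5e-09) and at least 28.1-fold higher than in Prepuberty 2 (8.4e-09), counting 3 UMIs over the group for a group at 0.

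Tcrg-C1 was at least 6.77-fold higher in Tumor than in DCIS in all gated cells (edgeR adjusted p = 0.0075) and at least 13.6-fold higher without the mixed-profile cells (1.1e-07), and only the second call held without Prepuberty 2 or DCIS 1 (0.16 and 0.095 in all gated cells). Of the 8 gamma-delta genes tested without the mixed-profile cells, these 2 passed, beside 1.31% of all genes higher, and all 8 were positive, with a median log2 fold change of 6.59 beside 0.06 over all genes tested. A gene of this list reached the test only through its UMIs in the tumours, so the count, the direction of all 8 and the median are a description. The other gamma chain regions Tcrg-C2 and Tcrg-C4 had 12 and 7 UMIs in Tumor 1 and 13 and 11 in Tumor 2 and at most 1 in any gland library, and since the gamma constant regions are near-identical copies, how their reads were divided is uncertain. Cd163l1, a scavenger receptor gene of gamma-delta cells, had 6 and 19 UMIs in Tumor 1 and 2 and none elsewhere (edgeR adjusted p = 0.20 without the mixed-profile cells). Blk, a kinase gene of B cells and of gamma-delta cells, had 8 and 20 UMIs against 2 in Prepuberty 2 and none in DCIS (edgeR adjusted p = 0.085).

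Il17a encodes the cytokine interleukin 17A. Il17a (chr1:20730905-20734496 on the plus strand, GRCm38) had 9 UMIs in 4 cells of Tumor 1, 42 UMIs in 7 cells of Tumor 2 and none in the 4 gland libraries. The difference from DCIS was not called in all gated cells (edgeR adjusted p = 0.14), and without the mixed-profile cells, none of which had an Il17a UMI, it was at least 7.13-fold (edgeR adjusted p = 0.00012), or 0.063 without DCIS 1. Against Prepuberty 2 the values were 0.053 and 2e-05. Its neighbour Il17f (chr1:20777146-20790617 on the minus strand, GRCm38), which encodes a related cytokine, had 1 UMI in each tumour and was not tested. The promoters of this pair, from RefSeq on GRCm38.p6, are shown because Il17a and Il17f are the output genes of type 17 cells. They run 5′ to 3′ on the strand of the gene, from 250 bases before to 50 bases after the start, at chr1:20730655-20730954 on the plus strand for Il17a and at chr1:20784221-20784520 on the minus strand for Il17f. The start that RefSeq gives for Il17f lies inside the gene as placed above, which is the longer span of GENCODE. Capitals mark the letters AGGTCA, a half-site of many nuclear receptors, or its complement TGACCT.
Il17a: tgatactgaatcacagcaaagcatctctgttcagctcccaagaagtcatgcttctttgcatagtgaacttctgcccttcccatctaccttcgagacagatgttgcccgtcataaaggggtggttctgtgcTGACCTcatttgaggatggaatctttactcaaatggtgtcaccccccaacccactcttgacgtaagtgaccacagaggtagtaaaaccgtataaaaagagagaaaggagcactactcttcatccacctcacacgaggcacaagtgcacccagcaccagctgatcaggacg
Il17f: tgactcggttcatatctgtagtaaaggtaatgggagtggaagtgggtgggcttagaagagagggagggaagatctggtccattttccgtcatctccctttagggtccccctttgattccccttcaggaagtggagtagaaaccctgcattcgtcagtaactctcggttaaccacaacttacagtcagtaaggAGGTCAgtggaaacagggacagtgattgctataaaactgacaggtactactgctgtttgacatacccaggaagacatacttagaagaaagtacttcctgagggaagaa
Each window holds the letters once, on the opposite strand from position 131 (120 bases before the start) for Il17a and on the same strand from position 193 (58 bases before the start) for Il17f. On either strand they occur in 16.3% of 32851 windows of this kind, so a match in a window is common and is a description only.

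Other genes of the type 17 list rose with Il17a when the mixed-profile cells were left out. Tmem176a and Tmem176b encode related membrane proteins of type 17 lymphocytes and of dendritic cells and overlap on opposite strands of chromosome 6. In that set Tmem176b had 1 UMI in Prepuberty 2, 2 and 1 in DCIS 1 and 2, 61 in Tumor 1 and 42 in Tumor 2, and the edgeR log2 fold change of Tumor against DCIS was 3.78 (SE 0.75, adjusted p = 8.1e-05). In all gated cells it was 3.39 (SE 0.86, edgeR adjusted p = 0.025), a call that held only in the fit without Tumor 2 among those with 1 library left out (adjusted p of 0.054 to 0.18 in the others). Tmem176a had no UMI in Prepuberty 2, 1 in each DCIS library, 59 in Tumor 1 and 31 in Tumor 2, with a log2 fold change of 4.12 (SE 0.82, edgeR adjusted p = 8.3e-05), but it was not called in all gated cells (0.16) nor, in the smaller set, without DCIS 1 (0.063). Both genes are common in the epithelium, where 57.5% and 72.8% of Epcam-positive cells had a UMI, and the part of free RNA in the rise was not tested. After thinning, the share with a Tmem176b UMI was 25.8% and 34.1% of epithelial cells in DCIS and 16.2% and 12.1% in the tumours. In the gated cells it was 6.06% and 9.09% in DCIS and 22.4% and 18.8% in the tumours. Rora, which encodes a nuclear receptor, was higher in Tumor than in Prepuberty without the mixed-profile cells (log2 fold change 2.39, SE 0.71, edgeR adjusted p = 0.043). In all, 3 of the 6 type 17 genes tested in that set rose from DCIS to Tumor, beside 1.31% of all genes, with a median of 2.28 beside 0.06. All 3 reached the test through their UMIs in the tumours, with at most 2 UMIs in any other library, so the count and the median are a description.

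Some genes outside the lists were called as well. Krt83, a hair keratin gene, had no UMI in Prepuberty, 1 and 3 in DCIS 1 and 2, 66 in 24 cells of Tumor 1 and 51 in 13 cells of Tumor 2. It was at least 17.1-fold higher in Tumor than in Prepuberty 2 (edgeR adjusted p = 0.0013), and without the mixed-profile cells its log2 fold change against DCIS was 3.50 (SE 0.71, edgeR adjusted p = 0.00011, and 0.18 without DCIS 1). Ramp1, which encodes a partner of the receptor for the neuropeptide CGRP, had 5 UMIs in 1 cell of Prepuberty 1, 6 in Prepuberty 2, 14 and 4 in DCIS and 122 and 71 in the tumours, and was higher in Tumor than in Prepuberty with a log2 fold change of 3.99 (SE 0.98, edgeR adjusted p = 0.017). Without the mixed-profile cells the log2 fold change of Ramp1 was 4.58 (SE 0.80) and was again called. Ly6g5b, a surface protein gene of the Ly6 family, had 13 and 23 UMIs in the tumours and none elsewhere. Cxcr6, which encodes a homing receptor of tissue-resident T cells, had without the mixed-profile cells 12 UMIs in Prepuberty 2, 26 and 2 in DCIS and 62 and 43 in the tumours, and was called against Prepuberty (log2 fold change 2.66, SE 0.71, edgeR adjusted p = 0.012) and not against DCIS (0.57).

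The same genes were read cell by cell in the 2 tumours, as a description without a test because Trdc chose the cells. Among 25 Trdc-positive and 84 other tumour cells, mixed-profile cells left out, Tcrg-C1 was detected in 19 and 3, Krt83 in 19 and 17, Cd163l1 in 13 and 0, and the checkpoint receptor gene Pdcd1 in 17 and 13. Cxcr6 was found in 20 and 23, and the calcium-binding protein gene S100a4 in 20 and 21. In the other direction, the costimulatory receptor gene Cd28 was found in 0 and 38, the naive T cell factor gene Lef1 in 0 and 25, the homing receptor gene Ccr7 in 2 and 36, and the interferon-induced gene Ifi27l2a in 6 and 62. The Trdc-positive cells were deeper, with a median of 2675 UMIs against 1879.5. Over all libraries, the alpha chain gene Trac was seen in 6 of the 27 Trdc-positive cells and 125 of the 234 others, and Cd4 in 0 and 33. The beta chain genes were more frequent in the Trdc-positive cells, with Trbc2, a gate gene, in 26 and 201, and Trbc1, which the gate did not use, in 17 and 97.

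Foxp3-positive cells were read in the same way, again without a test. With the mixed-profile cells left out, 14 Foxp3-positive cells and 216 others had Ikzf2, a transcription factor gene of regulatory T cells, in 13 and 50, the TNF receptor family genes Tnfrsf9 and Tnfrsf4 in 12 and 35 and in 12 and 43, and the inhibitory receptor gene Ctla4 in 10 and 29. The same ranking held the actin-capping gene Capzb in 13 and 73, the malate dehydrogenase gene Mdh1 in 12 and 52, and Stx11, Cd81, Vmp1 and Ppm1b, each in 10 of the 14. The naive factor gene Tcf7 was in 0 and 47, and their median depth was 3208 UMIs against 1670.5.

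**Figure D5:**
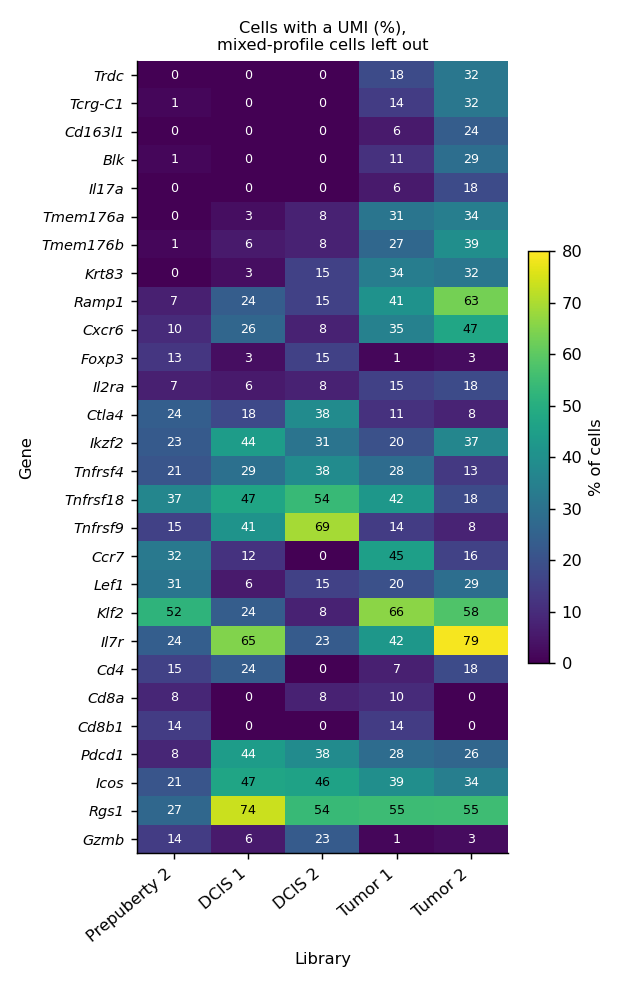
Percentage of Nkg7-negative T cells with at least 1 UMI of each gene (rows), by library (columns), unthinned and with the 31 mixed-profile cells left out; Prepuberty 1, with 3 such cells, is not drawn. The gamma-delta and type 17 genes at the top are seen almost only in Tumor 1 and Tumor 2, and Tnfrsf9 is highest in the DCIS libraries (41.2% and 69.2%).

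Of the regulatory genes, few passed the test. Foxp3 (chrX:7573644-7595245 on the plus strand, GRCm38) had 1 UMI in Prepuberty 1, 24 UMIs in 9 cells of Prepuberty 2, 1 and 4 in DCIS 1 and 2 and 1 in each tumour. It was lower in Tumor than in Prepuberty in all gated cells (log2 fold change -4.53, SE 1.21, edgeR adjusted p = 0.031) but not without Tumor 2 (-4.08, 0.17) or without the mixed-profile cells (-3.84, SE 1.45, 0.23), and the Tumor and DCIS difference was not called in either set. Ctla4 had 63 UMIs in Prepuberty 2, 11 and 6 in DCIS and 13 and 7 in the tumours without the mixed-profile cells, and fell against Prepuberty in that set (log2 fold change -2.09, SE 0.62, edgeR adjusted p = 0.041, and 0.061 without Tumor 1 and 0.23 without Tumor 2). Il2ra, the high-affinity interleukin 2 receptor chain gene, had 32 UMIs in 6 cells of Prepuberty 2, 2 in each DCIS library, 13 in Tumor 1 and 9 in Tumor 2, and was not called.

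Tnfrsf9 (chr4:150914562-150946102 on the plus strand, GRCm38), which encodes the costimulatory receptor 4-1BB, gave the firmest fall of this list. Its UMIs were 165 in 13 cells of Prepuberty 2, 84 in 16 of DCIS 1, 99 in 9 of DCIS 2, 12 in 11 of Tumor 1 and 22 in 5 of Tumor 2. Per 10000 UMIs this was 6.0, 8.76, 27.9, 0.459 and 0.60, so both tumours lay below every other library tested. The log2 fold change of Tumor against DCIS was -5.14 (SE 0.72, edgeR adjusted p = 3.7e-05), and -4.58 (SE 0.50, 1.1e-16) without the mixed-profile cells, but the call was lost in all gated cells when Prepuberty 2 was left out (0.088). Epithelial Tnfrsf9 was more frequent in the tumours, in 8.52% and 21.8% of Epcam-positive cells against 1.99% to 2.63% in DCIS. Klrg1, an inhibitory receptor gene of effector and regulatory cells, had 25 and 0 UMIs in DCIS 1 and 2 and 0 and 6 in the tumours (log2 fold change -4.27, SE 0.93, edgeR adjusted p = 0.0062), but without DCIS 1 its direction turned (4.06, edgeR adjusted p = 0.85), so its fall rests on that library. Of 10 regulatory genes tested without the mixed-profile cells, 2 fell from DCIS to Tumor (Tnfrsf9 and Klrg1), beside 2.20% of all genes, and none rose, with a median of -1.12 beside 0.06 over all genes.

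Klf2, which maintains naive T cells and switches on the egress receptor gene S1pr1, had 68 UMIs in Prepuberty 2, 12 and 1 in DCIS and 124 and 58 in the tumours without the mixed-profile cells, and rose from DCIS to Tumor in that set with a log2 fold change of 2.60 (SE 0.57, edgeR adjusted p = 0.00045, and 0.060 without Prepuberty 2 and 0.16 without DCIS 2). Klf2 was not called in all gated cells (0.26). Igfbp4, a growth factor binding protein gene of the list of naive and recirculating cells, had 3 UMIs in Prepuberty 2, none in DCIS and 9 and 21 in the tumours in that set, at least 4.19-fold higher than in DCIS (edgeR adjusted p = 0.043), a call lost without either DCIS library or Tumor 1. Its direction turned with the set of cells, since in all gated cells DCIS 1 held 97 UMIs and Tumor 1 and 2 held 125 and 118 (log2 fold change -0.58, SE 0.75, edgeR adjusted p = 0.80). Il7r, the interleukin 7 receptor gene, had a UMI in 50% and 27.3% of thinned cells in DCIS, 21.7% in Prepuberty 2 and 29.5% and 55.3% in the tumours, mixed-profile cells left out. Ccr7 split the tumours, with 90 UMIs in 32 cells of Tumor 1 and 8 in 6 cells of Tumor 2, and Cd8b1 did likewise, with 17 in Tumor 1 and none in Tumor 2.

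Checkpoint and effector genes were also uneven. Pdcd1, which encodes the inhibitory receptor PD-1, had 18 UMIs in 6 cells of Prepuberty 2, 43 in 15 of DCIS 1, 22 in 5 of DCIS 2, 42 in 20 of Tumor 1 and 18 in 10 of Tumor 2 without the mixed-profile cells. It rose from Prepuberty to DCIS in that set (log2 fold change 2.65, SE 0.69, edgeR adjusted p = 0.016), a call lost without DCIS 1 (0.17) and not made in all gated cells (0.21). From DCIS to Tumor it was not called in either set (0.11 and 0.055). Gzmb fell from DCIS to Tumor (log2 fold change -3.31, SE 0.91, edgeR adjusted p = 0.043) and had 128 UMIs in Prepuberty 2, 3 and 17 in DCIS and 11 and 1 in the tumours, with the 11 UMIs of Tumor 1 in 1 cell. Without DCIS 2 the fall was -0.70 (edgeR adjusted p = 0.86). Ctsw, a cysteine protease gene of cytotoxic lymphocytes, went the other way, with 2 UMIs in Prepuberty 2, none in DCIS and 20 and 17 in the tumours, and was called against DCIS without the mixed-profile cells (edgeR adjusted p = 0.0073) and in no fit that left out 1 library. Gata3, the type 2 factor gene, fell from DCIS to Tumor in that set (log2 fold change -2.13, SE 0.65, edgeR adjusted p = 0.035), and in no fit that left out 1 library (0.073 to 0.42).

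Among interferon and stress genes, Ifi27l2a and Hspa1a were higher in DCIS than in Tumor. Ifi27l2a, an interferon-induced gene, had 46.7 UMIs per 10000 in Prepuberty 2, 94.0 and 125 in DCIS 1 and 2, and 23.3 and 10.3 in Tumor 1 and 2 without the mixed-profile cells, and fell from DCIS to Tumor with a log2 fold change of -2.68 (SE 0.29, edgeR adjusted p = 4.5e-17). It fell in all gated cells as well (-3.48, SE 0.65, edgeR adjusted p = 0.0012), though not without Prepuberty 2 (0.16) or DCIS 2 (0.099). Of the list, 1 of 13 interferon genes tested without the mixed-profile cells fell in that comparison, beside 2.20% of all genes, and none rose, beside 1.31%, with a median of -0.54 beside 0.06 over all genes. Isg15, an interferon-induced ubiquitin-like protein gene, had 7.01 UMIs per 10000 in Prepuberty 2, 1.16 and 4.79 in DCIS and 1.70 and 1.10 in the tumours, and was lower in Tumor than in Prepuberty in that set (log2 fold change -2.15, SE 0.58, edgeR adjusted p = 0.013, and 0.17 without Tumor 2). The chaperone gene Hspa1a had 55 UMIs in 5 cells of DCIS 2 and 2 in DCIS 1. Its fall to Tumor without the mixed-profile cells (log2 fold change -3.88, SE 0.60, edgeR adjusted p = 5e-08) turned to 0.69 without DCIS 2 (0.94) and rests on that library. Hspa1a was also more frequent in the epithelium of DCIS, in 23.8% and 29.2% of thinned epithelial cells against 10.6% and 1.51% in the tumours, and the part of free epithelial RNA in its fall was not tested.

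S100a4 rose in the tumours, and so did its share in the epithelium. Without the mixed-profile cells it had 32 UMIs in Prepuberty 2, 13 and 2 in DCIS 1 and 2 and 106 and 128 in Tumor 1 and 2, with a log2 fold change against DCIS of 2.81 (SE 0.55, edgeR adjusted p = 6.8e-05, and 0.064 without DCIS 2). It was not called in all gated cells (0.12). It was found in 0.831% to 1.03% of thinned epithelial cells in DCIS and in 3.87% and 15.7% in the tumours, and the part of free epithelial RNA in this rise was not tested.

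Class II genes fell from DCIS to Tumor in all gated cells and without the mixed-profile cells, namely H2-Aa, H2-Ab1 and Cd74. H2-Ab1 was not called in all gated cells without Prepuberty 2 (0.14) or DCIS 2 (0.13), and Cd74 not without Prepuberty 2 (0.13). Without the mixed-profile cells H2-Ab1 had no UMI in Prepuberty 2, 9 in 5 cells of DCIS 1, 14 in 2 cells of DCIS 2 and 3 and 2 in the tumours. Its log2 fold change of Tumor against DCIS was -3.53 (SE 0.85, edgeR adjusted p = 0.0023), a call lost without Prepuberty 2 (0.051) and without Tumor 1. H2-Ab1 was also at least 12.2-fold higher in DCIS than in Prepuberty 2 (edgeR adjusted p = 0.00062), a call not made in all gated cells. The counts came from few cells, with 27 H2-Aa UMIs in 3 cells of DCIS 1 and none in DCIS 2 without the mixed-profile cells, and these genes are in the dendritic marker list whose sums are given above. Genes known from myeloid cells were called as well. Tyrobp, an adaptor gene of myeloid and natural killer cells, had without the mixed-profile cells 1 UMI in Prepuberty 2, 17 in 1 cell of DCIS 1, 12 in 2 cells of DCIS 2 and 2 and 5 in the tumours, with a log2 fold change of Tumor against DCIS of -3.27 (SE 0.71, edgeR adjusted p = 0.00037). Fcer1g, a signalling chain gene of Fc receptors, had 23 UMIs in 1 cell of DCIS 1, and Lst1, a leukocyte gene, 17 in 1 cell. Tyrobp fell by 4.55 and Lst1 by 4.79 on the log2 scale in all gated cells (edgeR adjusted p = 0.00051 and 0.0054), calls that were lost without Prepuberty 2 (0.088 and 0.12). The neutrophil gene S100a8, called with them, had 22 UMIs in 1 cell of DCIS 1. The part of other cells in these calls was not tested.

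Nkg7-positive T cells are set beside these values as a description, since Nkg7 divided the cells. The contrast of the states between the divisions could not be fitted, because DCIS 1 and 2 held 9 and 3 Nkg7-positive cells. Of the 119 Nkg7-positive cells, Cd8b1 was detected in 47 (39.5%), Ctsw in 72 (60.5%), Gzmb in 26 (21.8%) and the chemokine gene Ccl5 in 62 (52.1%). Trdc was found in 16 (13.4%), among them 2 of the 3 cells of DCIS 2, and with the Nkg7-positive cells added the Trdc difference between Tumor and DCIS in edgeR was no longer called (log2 fold change 1.69, adjusted p = 0.41). Il17a and Foxp3 were each found in 0 of 119 cells, which allows a share of up to 2.52%. Il17a had 11 cells and Foxp3 15 cells among the 261 without Nkg7.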

How the data were processed

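Raw UMI counts per gene and cell for 6 libraries were made by the authors with Cell Ranger 3.0.2, per the file headers, on a mouse reference (mm10 in the submitters' processing notes), and deposited as count matrices of 23835 barcodes. The members and gene lists were chosen with earlier results of these data known. Cells were gated on raw counts in Python 3.11.15, with no doublet removal in the main analysis. The Scrublet of scanpy 1.11.5, as an alternative, took out 3 gated cells. UMIs were summed per library with at least 10 gated cells and tested with edgeR 4.0.16 in R 4.3.3 (TMM, filterByExpr by state, quasi-likelihood F test, two-sided, state as the only term over all 5 libraries that qualified). DESeq2 1.42.0 was an alternative. Each SE is the log2 fold change divided by the square root of its F value. Gate genes were given no test.

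On simulated counts with 8-fold changes between Tumor and DCIS, 45.3% of 179 changed genes were recovered with 1 false call for all gated cells, and 76.1% of 188 with 3 false calls without the mixed-profile cells. The simulation gave all genes a common spread and did not group UMIs in single cells. Its false calls may thus be fewer than those in the real sums. Shares were compared by two-sided exact permutation tests and have exact (Clopper-Pearson) 95% intervals. These intervals and the limits for a count of 0 (3 counts) cover counting error only. For pooled UMIs, intervals and least folds count each UMI as independent, although UMIs of a gene often lay in few cells. Named genes were members of fixed lists, defining genes of the classes, and the 10 largest called changes per direction whose libraries did not overlap. Gene positions are from GENCODE vM21. Replicate numbers did not pair the libraries: deviations of DCIS 1 and Tumor 1 from their group means correlated at 0.0415. Alternatives were other scalings, filters, gates, depths and left-out libraries. The exclusion of mixed-profile cells was added after seeing the data. Some results, among them those of 2 further cell classes, are not reported here.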

Additional observations from a re-analysis of the deposited data

How the results depend on the processing

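Counts of genes past the edgeR threshold depended on the processing, and unless stated the cause was not tested. In all gated cells, DCIS against Prepuberty gave 10 genes, but 24 with RLE size factors, 20 with no filter on low counts, 46 with only the libraries of the 2 states, 25 without mixed-profile cells, 1 each with a mitochondrial limit of 5%, without the highest Scrublet scores and with all T-gated cells, and 0 with DESeq2 (90 at an unadjusted p under 0.05), with Prepuberty 1 added (240) and with sums thinned to 35522 UMIs (37), where fewer UMIs were left. Leaving out 1 library gave 6 to 57, the lowest without DCIS 1. Tumor against DCIS gave 97 genes, but 25 with DESeq2, 5 with Prepuberty 1 added, 59 with the mitochondrial limit, 56 without the highest Scrublet scores, 15 with at least 3 T cell genes, 28 with 0 UMIs of 7 further genes, and 0 with only 2 states (421), all T-gated cells (565) and thinned sums (137). Leaving out 1 library gave 0 (without Prepuberty 2) to 240 (without Tumor 1). Tumor against Prepuberty gave 107 genes, and in the same order 19, 46, 67, 50, 20 and 33, then 203 with 2 states, 16 with all T-gated cells, 41 without mixed-profile cells and 0 with thinned sums (54). Leaving out 1 library gave 125 to 200.

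Without mixed-profile cells, the 3 comparisons gave 25, 83 and 41 genes, with DESeq2 0 (40 at an unadjusted p under 0.05), 13 and 3, with no filter 10, 47 and 25, with Prepuberty 1 added 10, 39 and 20, and for Tumor against DCIS 23 with only 2 states. Leaving out 1 library gave 6 to 31, 23 to 87 and 32 to 52, with 6 without DCIS 1 and 16 without DCIS 2 in the first, and 23 without Prepuberty 2, 30 without DCIS 1, 43 without DCIS 2 and 50 without Tumor 2 in the second. A replicate block, although the numbers did not pair the libraries, gave 29, 120 and 135 genes in all gated cells and 18, 87 and 37 without mixed-profile cells.

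Directions reversed for these log2 fold changes. From Prepuberty to DCIS, Calca was -0.14 with Prepuberty 1 added (-1.52 without mixed-profile cells), where 1 cell of that library held 20 UMIs, and Hspa1a without mixed-profile cells ranged from -1.30 (without DCIS 2) to 4.25 over left-out libraries. From DCIS to Tumor in all gated cells, Klrg1 ranged from -7.88 to 4.06 (without DCIS 1), Igfbp4 from -1.53 to 9.64 (without DCIS 1) and Hspa1a from -5.45 to 0.85 (without DCIS 2) over left-out libraries. Gzmb was 1.53 with 0 UMIs of 7 further genes, Igfbp4 6.76 without mixed-profile cells, and Hspa1a 5.78 with at least 3 T cell genes. Without mixed-profile cells, the ranges were -7.47 to 4.63 (without DCIS 1) for Klrg1, -4.38 to 0.094 (without DCIS 2) for Gzmb and -4.89 to 0.69 (without DCIS 2) for Hspa1a. In Tumor against Prepuberty, Ccr7 was -3.16 under the replicate block, and -3.09 without Tumor 1 to 1.30 without Tumor 2, Col3a1 -6.53 with 0 UMIs of 7 further genes, Apoe 1.31 without mixed-profile cells, Gzma 0.81 with all T-gated cells, and Ramp3 without mixed-profile cells from -0.68 (without Tumor 1) to 3.56 over left-out libraries. The share of kept cells turned to 0.632 percentage points for DCIS against Prepuberty without Prepuberty 2 (range over left-out libraries -1.50 to 0.632), and for Tumor against Prepuberty to -0.467 without Prepuberty 1 (range -0.467 to 1.67) and -7.09 with Ptprc-positive cells as the base. In Tumor against DCIS, the share of kept cells and the gamma-delta and regulatory class shares kept their direction under every alternative run. The regulatory share in DCIS against Prepuberty did not, at 1.77 percentage points thinned, -2.07 unthinned and -2.69 thinned with at least 3 T cell genes, each thinned value from 1 random draw. For single genes in all gated cells, 1601 values kept direction and call, 455 lost the call, 87 gained it, 36 moved and 12 reversed.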
